A study of Arabidopsis thaliana with 10 samples.

Results

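The chloroplast of Arabidopsis thaliana carries a small genome of its own, and the genes described here are those of its photosynthetic complexes and of its RNA polymerase. Members were the probe sets assigned to exactly 1 gene whose symbol begins with psa, psb, pet, ndh or rpo and a capital letter, or is rbcL, atpA, atpB, atpE, atpF, atpH or atpI. This gave 47 genes of 22810 probe sets in all. A further matching symbol, ndhB, belongs to a probe set assigned to 2 genes and was left out. Every one of the 47 lies on the plastid chromosome in the reference annotation, as the name of the group requires. They comprise 5 genes of photosystem I, 15 of photosystem II, 6 of the cytochrome b6f complex, 10 of the NADH dehydrogenase-like (NDH) complex, 6 of the ATP synthase, 4 of the RNA polymerase and rbcL. The rule goes by gene names alone.

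RNA came from rosettes of Col-0 plants, 4 weeks old and untreated, kept in a room chamber at 22 °C with a humidity of 50%. The 10 Affymetrix ATH1 arrays fall into 4 groups, namely homozygous CesA4 plants (3 arrays), heterozygous CesA4 plants (3 arrays), homozygous CesA6 plants (2 arrays) and heterozygous CesA6 plants (2 arrays). The lines are labelled after CESA4 and CESA6, subunits of the cellulose synthases of secondary and of primary cell walls. The CesA4 allele is labelled irx5-2, whereas the other line is labelled both AtCesA6 and irx6-1, and IRX6 is in the reference a name of another gene, COBL4, so which gene is mutated in it is not settled here. Wild-type plants were not analysed here, and each homozygous group was set against the heterozygous plants of its own line, which carry the mutant allele too. Whether a replicate stands for another plant, a pool or a repeat labelling is not given, so n counts arrays and p-values measure only the spread between these arrays.

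Chloroplast genes are transcribed by 2 kinds of RNA polymerase. The plastid-encoded polymerase is a bacterial-type enzyme whose core subunits are the products of rpoA, rpoB, rpoC1 and rpoC2, and it reads most photosynthesis genes, among them psa, psb and rbcL. A phage-type polymerase encoded in the nucleus reads housekeeping genes, with the operon of rpoB, rpoC1 and rpoC2 as the textbook case. Most chloroplast genes are transcribed together with their neighbours as long RNAs that are then cut and trimmed, and the level of each mature RNA depends on its stability as well as on its synthesis. Chloroplast mRNAs carry no stable poly(A) tail, and the one-cycle labelling named in the labels starts from oligo(dT), so the signals of these genes come from RNA that this primer reached.

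Values are MAS5 signals on the deposited scale, on which the 2% trimmed mean of every array was 100.01 and the median probe set lay between 32.002 and 37.7. Signals of different probe sets cannot be set against each other, so levels are compared only within a gene. A log2 change was fitted with limma on log2(signal + pseudocount) and is given with its standard error, and a gene passed where its p, adjusted over all 15922 probe sets tested, was under 0.05. Of the 47 genes, 45 were bright enough to be tested, while ndhF and rpoB fell among the dimmest 30% of probe sets on the array. Only 11 of the 470 signals lay under the pseudocount, and they belonged to 4 genes. RCA, which encodes Rubisco activase and was the only one of 4 listed green leaf markers with a named probe set, had signals of 9890 to 11975 on the 10 arrays. Of 2 listed root markers only PYK10 had one, and its changes of 1.02 ± 0.34 in the CesA4 line and 1.52 ± 0.41 in the CesA6 line did not pass (adjusted p = 0.0736 and 0.05004). Listed markers of xylem, flower, seed and senescent leaf were not analysed here. In these whole rosettes, fewer cells of a type and less RNA per cell cannot be told apart.

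Most chloroplast genes had lower mean signals in homozygous than in heterozygous plants of both lines, yet few of them passed the test. In the CesA4 line 40 of 45 changes were negative, with a median of -0.51, where the median over all probe sets was 0.02. A single member passed there, the lower psbA, which is 1 of 45, where 15.1% of all probe sets tested passed (8.20% higher and 6.93% lower). In the CesA6 line 39 of 45 changes were negative, with a median of -0.70 against -0.04 over all probe sets. The photosystem II genes psbK, psbL and psbA passed, all lower, while 8.53% of all probe sets passed (3.72% higher and 4.80% lower). At an unadjusted p under 0.05 stood 4 members in the CesA4 line, or 8.89%, against 26.4% of all probe sets. In the CesA6 line 8 members did, or 17.8%, against 20.7% of all probe sets. Without CesA4 heterozygous replicate 2 no member passed in the CesA4 line, and without homozygous replicate 3 there were 3. For the CesA6 line there were 10 without heterozygous replicate 1, 5 without homozygous replicate 1 and only psbK without either of the other arrays.

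The chloroplast genes varied more between replicate arrays than the median probe set. The median residual SD within groups was 0.60 on the log2 scale for the 45 tested members and 0.29 for all probe sets, and 41 of the 45 lay above the value for all probe sets. Least variable was psbF, a subunit of the cytochrome b559 of photosystem II, with a residual SD of 0.08. The most variable was petD, subunit IV of the cytochrome b6f complex, at 1.39, followed by psaA at 1.27, psaJ at 1.18 and petL at 1.15. A wide spread was not particular to the members. The median standard error of the CesA4 change was 0.41 for members and 0.34 for 22 other plastid-encoded genes. It was 0.50 for 9 tested probe sets of mitochondrially encoded genes and 0.23 over all probe sets.

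**Figure D1:**
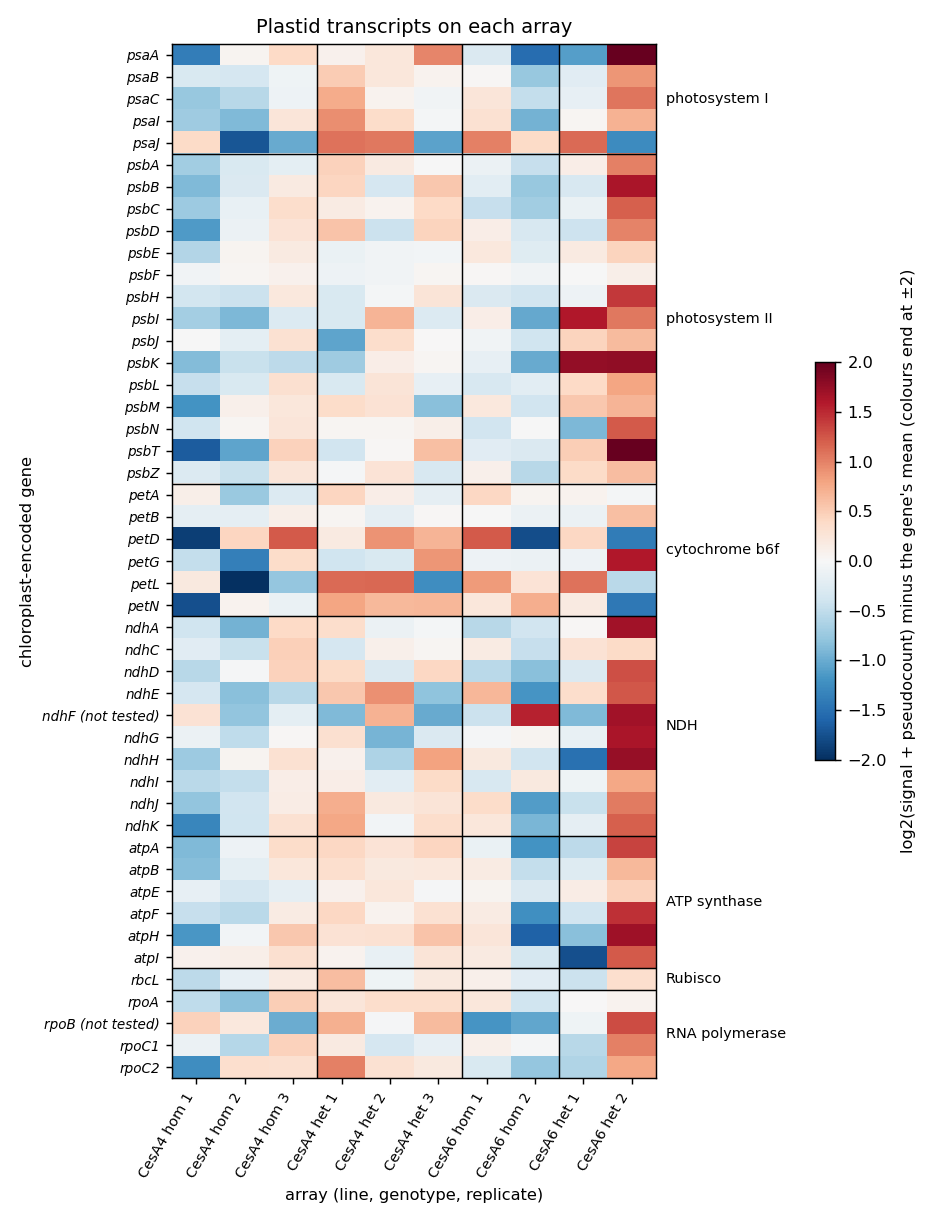
Deviation of each of the 47 chloroplast genes (rows, by complex, with the untested ndhF and rpoB marked) from its own mean over the 10 arrays (columns, by group and replicate), on the log2(signal + pseudocount) scale, with colours ending at 2 in either direction. The column of CesA6 heterozygous replicate 2 is high for most genes, with petN, petD, petL and psaJ among the exceptions, and the CesA4 homozygous replicates 1 and 2 and CesA6 homozygous replicate 2 are mostly low.

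Single arrays carried much of this spread. CesA6 heterozygous replicate 2 had the highest signal of all 10 arrays for 34 of the 45 genes, and its median deviation from the genes' own means was 1.00. CesA4 homozygous replicate 1 was lowest for 17 genes, CesA6 homozygous replicate 2 for 13 and CesA4 homozygous replicate 2 for 9. The median deviations were -0.54, -0.33 and 0.23 in homozygous CesA4 plants, against 0.29, 0.13 and 0.11 in heterozygous CesA4 plants. They were 0.10 and -0.39 in homozygous CesA6 plants, against -0.09 and 1.00 in heterozygous CesA6 plants. The homozygous and heterozygous arrays therefore overlapped in both lines. Without CesA6 heterozygous replicate 2 the median change in the CesA6 line was -0.15, with 28 of 45 negative, and without CesA6 heterozygous replicate 1 it was -1.26. Without CesA4 homozygous replicate 1 the median in the CesA4 line was -0.24, with 31 of 45 negative.

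Some measures of RNA separated the groups of a line. The 3′ to 5′ signal ratio of the actin control was 22.4 and 21.1 in homozygous CesA6 plants, both above the 19.0 and 18.8 of heterozygous CesA6 plants. In the CesA4 line it was 18.6, 23.3 and 21.1 in homozygous plants and 21.1, 24.8 and 20.6 in heterozygous plants, which overlapped. The GAPDH ratio was 1.68 on CesA6 heterozygous replicate 2, within a range of 1.37 to 2.34. The 25S ribosomal RNA signal of that array was 678, within a range of 184 to 710. The ubiquitin ratio was 2.73, 2.36 and 2.65 in homozygous CesA4 plants, all under the 2.94, 2.92 and 3.05 of heterozygous CesA4 plants. In the CesA6 line it was 3.11 and 2.47 in homozygous plants and 3.05 and 2.71 in heterozygous plants. The part of these measures in the results was not tested.

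**Figure D2:**
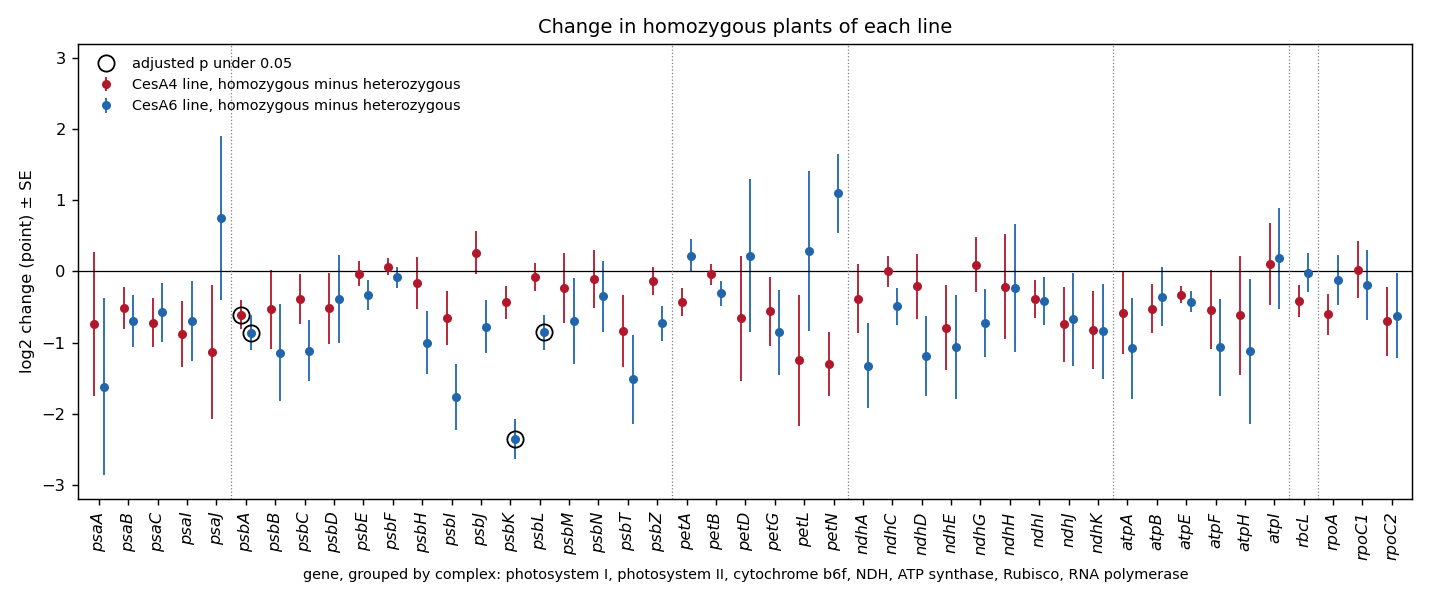
Log2 change, homozygous minus heterozygous, of each tested chloroplast gene (x axis, by complex) in the CesA4 line and in the CesA6 line, with error bars of 1 standard error of the fit. Most changes lie under 0, circled points passed the test, and psbK in the CesA6 line lies lowest at -2.36.

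Photosystem II splits water and passes electrons to plastoquinone, and it held every member that passed in any comparison. psbK encodes a small membrane subunit of its core. Its signals were 316, 423 and 398 in homozygous CesA4 plants, against 351, 636 and 593 in heterozygous CesA4 plants. In homozygous CesA6 plants the signals were 515 and 284, against 1967 and 1981 in heterozygous CesA6 plants. Both heterozygous CesA6 arrays thus lay at over 3 times the other 8 arrays, while the other 3 groups overlapped. The change was -2.36 ± 0.28 in the CesA6 line (adjusted p = 3.76e-05) and -0.44 ± 0.23 in the CesA4 line (adjusted p = 0.252).

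The changes of psbK in the 2 lines differed by 1.92 ± 0.37 (adjusted p = 0.0303), and psbK was the 1 member of 45 to pass that test, where 0.553% of all probe sets did (0.333% higher and 0.220% lower). This call was lost without CesA4 homozygous replicate 2 or 3, without CesA6 homozygous replicate 2 and without either CesA6 heterozygous replicate (adjusted p of 0.0703 to 0.139). Between heterozygous plants, CesA4 minus CesA6, psbK differed by -1.95 ± 0.26 (adjusted p = 0.000312). It was the 1 member to pass there, where 8.00% of all probe sets passed (3.41% higher and 4.59% lower). Between homozygous plants the difference was -0.02 ± 0.26, with a 95% interval of -0.57 to 0.53.

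The neighbour of psbK on the chloroplast chromosome is psbI, which encodes another small subunit of the photosystem II core and was added after its values were seen. psbI had signals of 328, 281 and 435 in homozygous CesA4 plants, against 425, 849 and 435 in heterozygous CesA4 plants. Its signals were 582.4 and 258.5 in homozygous CesA6 plants, against 1608 and 1099 in heterozygous CesA6 plants. As for psbK, both heterozygous CesA6 arrays lay above all others. The change of -1.77 ± 0.46 in the CesA6 line did not pass (adjusted p = 0.0548), though it did in 5 of 16 alternatives, among them that without CesA6 homozygous replicate 1 (-2.35, adjusted p = 0.00278), and that in the CesA4 line was -0.65 ± 0.38. The gene on the other side of psbI is atpA, the alpha subunit of the ATP synthase. Its signals were 2170 and 1035 in homozygous CesA6 plants and 1660 and 6079 in heterozygous CesA6 plants, which overlapped.

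**Figure D3:**
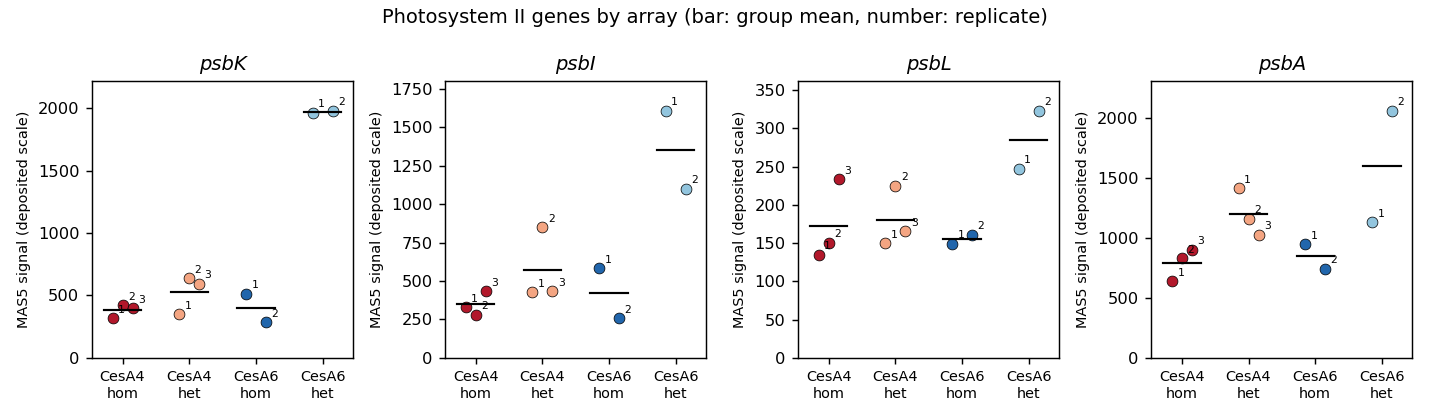
MAS5 signal (y axis, deposited scale) of psbK, psbI, psbL and psbA on each array, with 1 point per array, numbered by replicate, and a bar at the group mean. For psbK and psbI both heterozygous CesA6 arrays lie above the 8 other arrays, whereas psbA is high mainly on CesA6 heterozygous replicate 2, at 2061.

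psbL, a small subunit beside the cytochrome b559 of photosystem II, was lower in homozygous CesA6 plants. It had signals of 149 and 161 there, against 247 and 323 in heterozygous CesA6 plants. In homozygous CesA4 plants the signals were 135, 150 and 234, against 150, 225 and 166 in heterozygous CesA4 plants, which overlapped. The change was -0.86 ± 0.24 in the CesA6 line (adjusted p = 0.0292) and -0.08 ± 0.20 in the CesA4 line, and the difference between these changes did not pass (0.78 ± 0.32, adjusted p = 0.319). Without any one of the 4 CesA6 arrays the CesA6 call was lost, with an adjusted p of 0.0520 to 0.295.

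psbA encodes the D1 protein of the reaction centre, which is damaged by light and replaced continually. It was lower in homozygous plants of both lines. The signals were 637, 828 and 901 in homozygous CesA4 plants, against 1412, 1161 and 1025 in heterozygous CesA4 plants. In homozygous CesA6 plants they were 947 and 743, against 1132 and 2061 in heterozygous CesA6 plants. The groups did not overlap in either line. The change was -0.61 ± 0.20 in the CesA4 line (adjusted p = 0.0495) and -0.86 ± 0.24 in the CesA6 line (adjusted p = 0.0346). Without CesA6 heterozygous replicate 2 the CesA6 change was -0.43 (adjusted p = 0.444), and it did not pass without CesA6 homozygous replicate 2 either (adjusted p = 0.294). The CesA6 call was lost in 7 of 16 alternatives. The CesA4 call was lost in 10 of 18 alternatives, among them those without homozygous replicate 1 or 2 or heterozygous replicate 1 or 2 (adjusted p of 0.0913 to 0.195).

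All 15 photosystem II genes had negative changes in the CesA6 line, from -2.36 to -0.08, with a median of -0.86. Without CesA6 heterozygous replicate 2 the median was -0.45, with 13 of 15 negative, and without replicate 1 it was -1.29. In the CesA4 line 13 of 15 were negative, from -0.84 to 0.26, with a median of -0.23. That median ran from -0.48 without homozygous replicate 3 to -0.07 without homozygous replicate 1, where 9 of 15 were negative. Besides psbK, psbI, psbL and psbA, those in the CesA6 line included psbZ at -0.73 ± 0.25 (adjusted p = 0.0786), psbT at -1.52 ± 0.62 (adjusted p = 0.178) and psbC, a core antenna protein, at -1.11 ± 0.43 (adjusted p = 0.182). Further changes there lay between -1.14 and -0.33 for psbB, psbD, psbE, psbH, psbJ, psbM and psbN, and psbF stood at -0.08. None of them passed. Between heterozygous plants, CesA4 minus CesA6, all 15 differences were negative, with a median of -0.53. This median was -0.86 without CesA6 heterozygous replicate 1 and -0.26, with 9 of 15 negative, without CesA6 heterozygous replicate 2.

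In photosystem I, which passes electrons on to ferredoxin, no gene passed. psaC binds the iron-sulphur clusters at the acceptor side. Its signals were 111, 127 and 176 in homozygous CesA4 plants, against 317, 199 and 181 in heterozygous CesA4 plants. They were 223 and 135 in homozygous CesA6 plants, against 168 and 402 in heterozygous CesA6 plants. The groups were separate in the CesA4 line, where the change was -0.72 ± 0.34 (adjusted p = 0.214), and overlapped in the CesA6 line, where it was -0.57 ± 0.42 (adjusted p = 0.513).

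psaB is 1 of the 2 large reaction-centre proteins of photosystem I. It had signals of 2811, 2735 and 3253 in homozygous CesA4 plants, against 4924, 4043 and 3636 in heterozygous CesA4 plants. In homozygous CesA6 plants the signals were 3531 and 2039, against 2970 and 6425 in heterozygous CesA6 plants. Again the groups were separate in the CesA4 line, at -0.51 ± 0.30 (adjusted p = 0.332), and overlapped in the CesA6 line, at -0.70 ± 0.37 (adjusted p = 0.337). The other large reaction-centre protein gene, psaA, had its highest signal, 1080, on CesA6 heterozygous replicate 2, and 61.9 to 365 on the other 9 arrays. psaI, a small subunit, stood at -0.87 ± 0.46 in the CesA4 line and at -0.70 ± 0.57 in the CesA6 line, neither of which passed.

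rbcL encodes the large subunit of Rubisco, which fixes carbon dioxide. Its signals were 277, 356 and 454 in homozygous CesA4 plants, against 618, 376 and 457 in heterozygous CesA4 plants. They were 428 and 342 in homozygous CesA6 plants, against 297 and 505 in heterozygous CesA6 plants. The groups overlapped in both lines. The change was -0.41 ± 0.22 in the CesA4 line (adjusted p = 0.258) and -0.02 ± 0.27 in the CesA6 line (adjusted p = 0.982).

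The cytochrome b6f complex carries electrons between the photosystems, and its genes were negative in 6 of 6 cases in the CesA4 line and in 2 of 6 in the CesA6 line. The medians were -0.61 and 0.22 in those lines, and no gene passed. The CesA6 contrast rested on single arrays: without homozygous replicate 1 the median was -0.18 with 4 of 6 negative, without heterozygous replicate 2 it was 0.03 with 3 of 6, and without heterozygous replicate 1 it was 0.69. The CesA4 median was -1.15 without homozygous replicate 3. petN encodes a very small subunit. It had signals of 7.27, 34.1 and 29.2 in homozygous CesA4 plants, against 57.7, 52.5 and 52.6 in heterozygous CesA4 plants. It had 38.5 and 55.4 in homozygous CesA6 plants, against 37.1 and 9.99 in heterozygous CesA6 plants. All homozygous arrays were lower in the CesA4 line and higher in the CesA6 line, there by 38.5 against 37.1 at the closest. The change was -1.30 ± 0.45 in the CesA4 line (adjusted p = 0.0616) and 1.10 ± 0.55 in the CesA6 line (adjusted p = 0.276). The difference of -2.40 ± 0.71 between these changes did not pass either (adjusted p = 0.161).

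petA encodes cytochrome f. Its signals were 1301, 719 and 1000.2 in homozygous CesA4 plants, against 1626, 1322 and 1066 in heterozygous CesA4 plants. They were 1609 and 1255 in homozygous CesA6 plants, against 1262 and 1177 in heterozygous CesA6 plants. Both pairs of groups overlapped, with changes of -0.43 ± 0.19 (adjusted p = 0.156) in the CesA4 line and 0.22 ± 0.23 (adjusted p = 0.678) in the CesA6 line. Among the rest, petB (cytochrome b6) had a residual SD of only 0.24, with changes of -0.04 ± 0.15 in the CesA4 line and -0.31 ± 0.18 in the CesA6 line, and the dim petD and petG had standard errors of 0.49 to 1.08.

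petL and psaJ, small subunits of the cytochrome b6f complex and of photosystem I, lie on either side of petG on the chromosome. The signals of psaJ had 2 separate levels that cut across the groups. Those of petL were lowest on the same arrays but spread without a clear gap. Both genes were picked out after their values were seen. psaJ had 1009.6 and 1648 on CesA4 homozygous replicates 2 and 3, 1571 on CesA4 heterozygous replicate 3 and 1380.04 on CesA6 heterozygous replicate 2. On the other 6 arrays it ran from 4287 to 7276. petL had 70.3, 183, 132 and 216 on the same 4 arrays in that order, and 362 to 704 on the other 6. Of the genes that are no members, the ribosomal protein gene rpl16 was also lowest on these 4 arrays, at 122, 176, 241 and 251, against 359 to 738. Since the low arrays came from 3 of the 4 groups, the changes had wide errors, with psaJ at -1.13 ± 0.94 in the CesA4 line and 0.75 ± 1.16 in the CesA6 line. For petL they were -1.25 ± 0.92 and 0.29 ± 1.13.

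**Figure D4:**
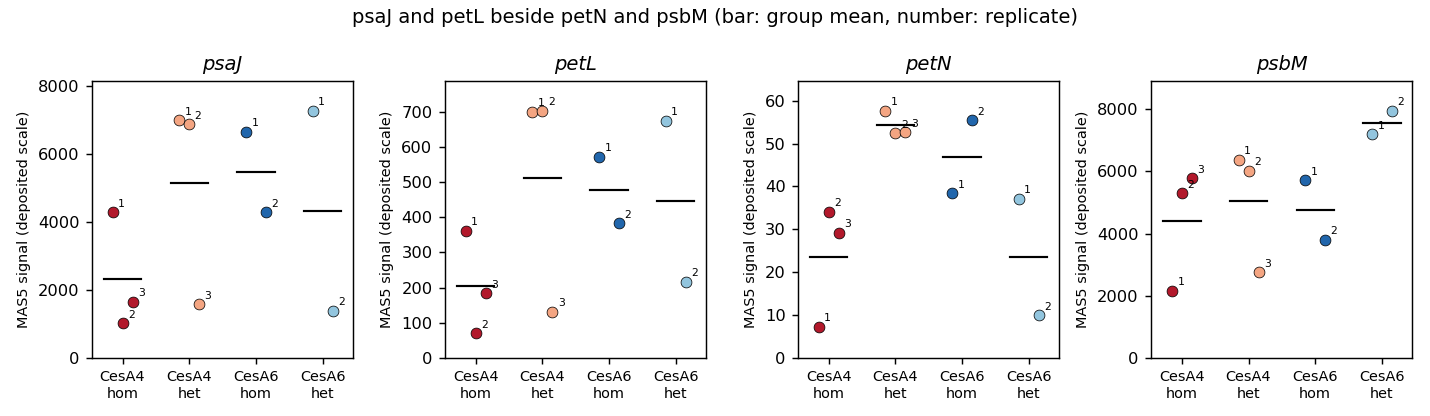
MAS5 signal (y axis, deposited scale) of psaJ, petL, petN and psbM on each array, with 1 point per array, numbered by replicate, and a bar at the group mean. The same 4 arrays are lowest for psaJ and petL, namely CesA4 homozygous replicates 2 and 3, CesA4 heterozygous replicate 3 and CesA6 heterozygous replicate 2. Both petN and psbM are lowest on CesA4 homozygous replicate 1 instead, at 7.27 and 2163.

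The NDH complex returns electrons from ferredoxin to plastoquinone in cyclic electron flow, and none of its 9 tested genes passed in any comparison. ndhG, a membrane subunit, had dim signals of 31.3, 23.3 and 34.8 in homozygous CesA4 plants, against 43.6, 16.6 and 27.5 in heterozygous CesA4 plants. They were 33.9 and 35.7 in homozygous CesA6 plants, against 30.6 and 114 in heterozygous CesA6 plants. Only CesA6 heterozygous replicate 2 stood apart. ndhA, another membrane subunit, had signals of 302, 204 and 525 in homozygous CesA4 plants, against 508, 366 and 388 in heterozygous CesA4 plants. In homozygous CesA6 plants the signals were 272 and 303, against 406 and 1288 in heterozygous CesA6 plants. Its groups overlapped in the CesA4 line (-0.38 ± 0.49, adjusted p = 0.700) and were separate in the CesA6 line (-1.32 ± 0.60, adjusted p = 0.277). Of the 9 genes 8 had negative changes in the CesA4 line, with a median of -0.38, and 9 in the CesA6 line, with a median of -0.72. Without single arrays the CesA4 median ran from -0.60 (homozygous replicate 3) to -0.24 (heterozygous replicate 1). The CesA6 median ran from -1.53 without heterozygous replicate 1 to -0.16 without heterozygous replicate 2, where 5 of 9 were negative. The untested ndhF had signals of 0.670 to 21.7.

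The ATP synthase makes ATP from the proton gradient across the thylakoid membrane. atpE, its epsilon subunit, had the steadiest signals after psbF among the tested members. They were 6932, 6160 and 6833 in homozygous CesA4 plants, against 8284, 9049 and 7644 in heterozygous CesA4 plants. In homozygous CesA6 plants they were 8063 and 6389, against 8654 and 10736 in heterozygous CesA6 plants. The groups were separate in both lines, and the changes of -0.32 ± 0.12 (adjusted p = 0.0725) in the CesA4 line and -0.43 ± 0.15 (adjusted p = 0.0776) in the CesA6 line did not pass.

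atpF, a subunit of the membrane part of the ATP synthase, overlapped in both lines. Its signals were 292, 276 and 452 in homozygous CesA4 plants, against 535, 423 and 499 in heterozygous CesA4 plants. They were 452 and 169.6 in homozygous CesA6 plants, against 307 and 1111 in heterozygous CesA6 plants. The changes were -0.54 ± 0.55 (adjusted p = 0.617) in the CesA4 line and -1.07 ± 0.68 (adjusted p = 0.462) in the CesA6 line. Over the 6 ATP synthase genes 5 changes were negative in each line, with medians of -0.53 in the CesA4 line and -0.75 in the CesA6 line. The CesA4 median ran from -0.77 without homozygous replicate 3 to -0.24 without homozygous replicate 1. The CesA6 median was -1.65 without heterozygous replicate 1 and -0.03, with 3 of 6 negative, without heterozygous replicate 2. With all arrays, atpI was positive in both lines, at 0.11 ± 0.58 and 0.18 ± 0.71.

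The RNA polymerase genes were read against the photosynthesis genes that their product transcribes. rpoA, the alpha subunit, had signals of 549.7, 436 and 1097 in homozygous CesA4 plants, against 924, 1001 and 1002 in heterozygous CesA4 plants. They were 914 and 596 in homozygous CesA6 plants, against 788 and 818 in heterozygous CesA6 plants. The change was -0.60 ± 0.28 in the CesA4 line (adjusted p = 0.204) and -0.12 ± 0.35 in the CesA6 line (adjusted p = 0.907), with overlap in both.

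rpoC1, the beta′ subunit, had 226, 163 and 336 in homozygous CesA4 plants, against 278, 194 and 219 in heterozygous CesA4 plants. It had 261 and 242 in homozygous CesA6 plants, against 166 and 496 in heterozygous CesA6 plants. The groups overlapped, with changes of 0.02 ± 0.40 and -0.19 ± 0.49 in the CesA4 and the CesA6 line. rpoC2, the beta″ subunit, had 25.9, 83.3 and 83.02 in homozygous CesA4 plants, against 136, 81.9 and 75.6 in heterozygous CesA4 plants. It had 52.3 and 37.2 in homozygous CesA6 plants, against 42.0 and 115 in heterozygous CesA6 plants. Here too the groups overlapped, and the changes were -0.70 ± 0.49 and -0.62 ± 0.60. The untested rpoB, the beta subunit, had 12.8, 10.1 and 2.61 in homozygous CesA4 plants, against 15.6, 8.14 and 14.7 in heterozygous CesA4 plants. It had 1.90 and 2.40 in homozygous CesA6 plants, against 7.66 and 25.4 in heterozygous CesA6 plants.

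The 21 genes psa, psb and rbcL and the 3 tested rpo genes were low or high on many of the same arrays. In the CesA4 line the median change was -0.44 for psa, psb and rbcL, with 19 of 21 negative, and -0.60 for rpo, with 2 of 3 negative. For the CesA6 line it was -0.73 with 20 of 21 negative, and -0.19 with 3 of 3 negative. Both sets moved with single arrays. Those of the CesA4 line were -0.21 and -0.18 without homozygous replicate 1, and -0.59 and -0.96 without homozygous replicate 3. In the CesA6 line they were -0.37 and 0.07 without heterozygous replicate 2, where 1 of 3 rpo changes was negative, and -1.20 and -0.97 without heterozygous replicate 1. The median deviation of the psa, psb and rbcL genes minus that of the rpo genes was -0.18, 0.27 and -0.24 in homozygous CesA4 plants, against -0.15, -0.16 and -0.16 in heterozygous CesA4 plants. It was -0.07 and -0.01 in homozygous CesA6 plants, against 0.59 and 0.22 in heterozygous CesA6 plants. Homozygous and heterozygous arrays overlapped in the CesA4 line and were separate in the CesA6 line, where each group had 2 arrays and the smaller rpo set held only 3 genes. No test was made of this difference.

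**Figure D5:**
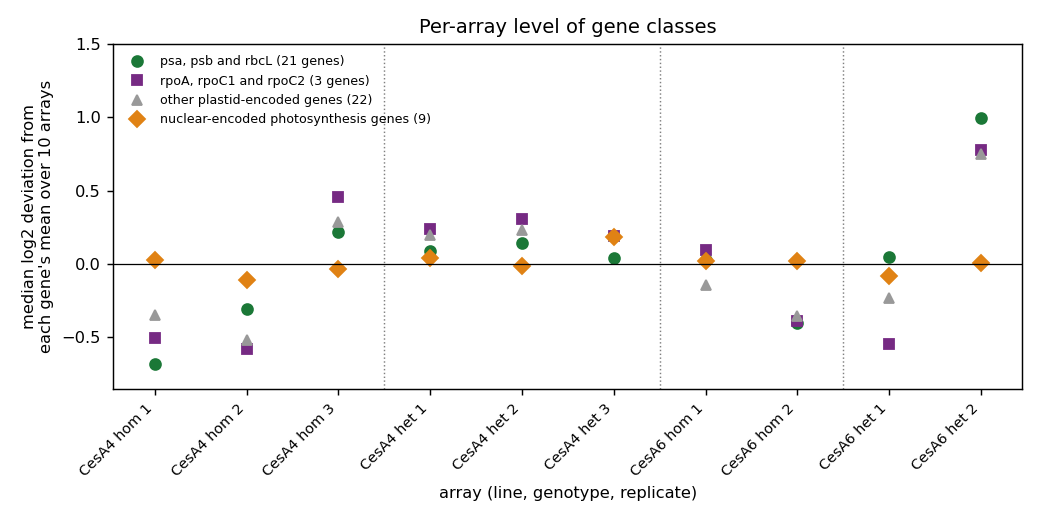
Median deviation of the 21 psa, psb and rbcL genes and of the 3 tested rpo genes on each array (y axis, log2 scale, relative to each gene's mean over 10 arrays), by group and replicate (x axis). Both sets are highest on CesA6 heterozygous replicate 2, at 1.00 and 0.77, and they lie furthest apart on CesA6 heterozygous replicate 1, at 0.05 and -0.55.

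Between homozygous plants of the 2 lines, CesA4 minus CesA6, none of the 45 members passed limma's test where 1.30% of all probe sets passed. At an unadjusted p under 0.05 stood 2 members, or 4.44%, against 10.5% of all probe sets. The median difference was -0.03, with 25 negative. Between heterozygous plants the median was -0.25, with 33 of 45 negative, and without CesA6 heterozygous replicate 2 it was 0.18. By non-overlap of arrays, 6 members had all homozygous CesA4 arrays under all heterozygous CesA4 arrays (atpE, petN, ndhJ, psaB, psaC and psbA), or 13.3%, against 13.9% of all probe sets, and none lay wholly above, against 15.8%. In the CesA6 line 14 members did so, or 31.1%, against 28.6% of all probe sets, and 1 (petN) lay wholly above, or 2.22%, against 23.1%. Between heterozygous plants 8 members had all CesA4 arrays under all CesA6 arrays (ndhC, psbE, psbI, psbJ, psbK, psbL, psbM and psbZ), or 17.8%, against 22.5% of all probe sets. Wholly above lay petN and rpoA, or 4.44%, against 16.7% of all probe sets. Between homozygous plants petL and petN lay wholly under, or 4.44%, against 12.0% of all probe sets, and none wholly above, against 13.3%.

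Nuclear factors that act on chloroplast transcripts were hardly covered. Of the 6 listed sigma factors and the 15 listed proteins associated with the plastid-encoded polymerase none had a named probe set, and of 3 phage-type polymerases 1 did but was too dim to be tested. Of 13 listed factors of RNA decay and stability 2 were tested, CRP1 (AT5G42310) and PPR10 (AT2G18940), and neither passed in any of the 5 comparisons.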

How the data were processed

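The deposited intensities are linear MAS5 signals made with GCOS, per the submitters' processing notes, and share a common 2% trimmed mean. Here arrays were brought to a trimmed mean of 500 and log2 was taken after adding a pseudocount of 16 (3.20 on the deposited scale), which understates changes of dim probe sets. The 64 control probe sets and the 30% with the lowest mean were left out, which left 15922. limma (version 3.58.1, R 4.3.3) was fitted with 4 group means over all 10 arrays and eBayes with trend and robust, on 6 residual and a median of 16 prior degrees of freedom. Adjusted p-values are Benjamini-Hochberg over all probe sets tested. Homozygous minus heterozygous plants were compared within each line, and 3 further comparisons took the difference of these changes between lines and the CesA4 minus the CesA6 line in homozygous and in heterozygous plants. With 2 or 3 arrays a group, the number of arrays limits the precision.

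Gene names came from GEO's annotation of the platform (13513 probe sets with 1 gene, 503 with several). The reference TAIR10.1 gave names, the chromosome of a gene and the order of neighbours. Other plastid genes were taken from its plastid chromosome, and mitochondrial genes by symbol.

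Signals of every array are given for the members past the threshold in the difference between lines, for the 2 members of each complex with the smallest p, and for rbcL and the rpo genes. Members and lists were chosen with earlier results of these data known. Deviations from the group means were only weakly correlated between same-numbered arrays of a line (0.01 to 0.08, against -0.08 to 0.03 for other arrays), so replicate numbers were not used as pairs. With 2 arrays a group, the CesA6 correlations are equal in size by construction, so the check says little there. In the CesA4 line the deviations also cancel out within each group, which ties the correlations to one another. The check therefore cannot settle whether same-numbered arrays were paired. The fit was tested on simulated data. Alternatives covered the pseudocount, scaling, filter, eBayes settings, the groups fitted, a replicate block, each array left out, and, added after the data were seen, plastid genes centred on each array's plastid median.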

Additional observations from a re-analysis of the deposited data

Results flagged for a closer look

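psbK was singled out because its homozygous minus heterozygous changes differed between the lines, by 1.92 ± 0.37 on the log2 scale (limma, adjusted p = 0.0303), CesA4 change minus CesA6 change. Its signal was lower on both homozygous CesA6 arrays than on both heterozygous CesA6 arrays, and the homozygous and heterozygous arrays overlapped in the CesA4 line.

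petN was singled out because every homozygous CesA4 array lay under, and every homozygous CesA6 array above, the heterozygous arrays of the same line. The difference between these changes was -2.40 on the log2 scale and did not pass limma's test (adjusted p = 0.161, and 0.0852 to 0.493 over its alternatives). In the CesA6 line the closest petN signals were 38.5 against 37.1, and without CesA6 heterozygous replicate 2 its change there was 0.29. Over all probe sets tested, 13.9% lay wholly under in the CesA4 line and 23.1% wholly above in the CesA6 line. The share that did both was not counted. Groups of 2 or 3 arrays are too small for a search for outlying arrays within a group.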

How the results depend on the processing

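The call of psbK in the CesA6 line held in 16 of 16 alternatives, with changes of -2.78 to -1.80, and that between heterozygous plants held in 16 of 16, at -2.10 to -1.68. The difference of psbK between the lines held in 13 of 21, at 1.496 to 2.35. No change named as passing turned its sign. In the CesA4 line, where 1 member passed, none did with a pseudocount of 1, with scaling without organelle-encoded probe sets, with eBayes without trend and robust, or with plastid genes centred. There were 2 with a pseudocount of 64, on the deposited scale and with median centring, 5 with only the compared groups fitted, and 0 to 3 without single arrays. With the replicate block there were 3 in the CesA4 line (petA, petN and ndhI), 4 in the CesA6 line and 1 in the difference. With it psbA no longer passed in either line, at an adjusted p of 0.101 in the CesA6 line, while psbI passed there (adjusted p = 0.0114). The comparisons of the lines within homozygous and within heterozygous plants were not fitted with the block. In the CesA6 line, where 3 passed, only 1 did with median centring, with eBayes without trend and robust and with plastid genes centred. There were 5 with quantile normalization, 6 with only the compared groups fitted, and 1 to 10 without single arrays. In the difference between lines, where 1 passed, none did with median centring, with eBayes without trend and robust (where no probe set at all passed) or with plastid genes centred, and 0 to 1 did without single arrays. Between heterozygous plants, where 1 passed, 4 did with only the compared groups fitted and 1 to 4 without single arrays.

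With plastid genes centred, which takes out their common level, the median member change was -0.11 in the CesA4 line and -0.14 in the CesA6 line, and 26 of 45 were negative in each. Without single arrays the median over members ran from -0.39 to 0.71 in the difference and from -0.83 to 0.18 between heterozygous plants. Median centring moved the median over all probe sets from 0.08 to -0.07 in the difference and from -0.07 to 0.06 between heterozygous plants. Higher probe sets then made up 57.0% of calls in the CesA6 line (43.7% in the fit reported), 28.9% in the difference (60.2%) and 67.0% between heterozygous plants (42.6%).

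Counts over all probe sets moved as well. The 1358 calls in the CesA6 line became 747 with eBayes without trend and robust and 717 to 1100 without single arrays. The 88 in the difference became 0 with eBayes without trend and robust, 197 with the replicate block and 14 to 130 without single arrays. The 207 between homozygous plants became 60 with eBayes without trend and robust, and 111 without CesA6 homozygous replicate 2. The 1274 between heterozygous plants became 283 with eBayes without trend and robust and 264 to 1180 without single arrays. The cause of these shifts was not tested.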

Other observations

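Of the 22 other plastid-encoded genes, all tested, the ribosomal protein gene rpl33 was the one that passed. It did so in the CesA6 line, where 8.53% of all probe sets passed, and between heterozygous plants, where 8.00% did. Between heterozygous plants rpl33 was lower in the CesA4 line, a call lost in 5 of 16 alternatives. rpl33 lies next to psaJ on the chromosome but did not share that gene's pair of levels. rpl33 had signals of 518 and 530.1 in homozygous CesA6 plants, against 1289 and 1765 in heterozygous CesA6 plants, a change of -1.52 ± 0.27 (adjusted p = 0.00153) that passed in 16 of 16 alternatives. In the CesA4 line its mean was 673 ± 245 in homozygous plants and 761 ± 160 in heterozygous ones (SD, n = 3 each), at -0.22 ± 0.22 (adjusted p = 0.597). The difference between these changes did not pass (1.30 ± 0.35, adjusted p = 0.127). Over the 22 genes the median change was -0.43 in the CesA4 line, with 21 negative, and -0.55 in the CesA6 line, with 18 negative.

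Nuclear genes of the photosynthetic apparatus did not share that median. Over 9 tested genes it was -0.09 in the CesA4 line, with 6 negative, and 0.06 in the CesA6 line, with 3 negative. LHCB4.3, a light-harvesting protein of photosystem II, was lower in homozygous CesA4 plants, at 361 ± 60.2 against 719 ± 233 in heterozygous CesA4 plants (SD, n = 3 each). That was a change of -0.95 ± 0.20 (adjusted p = 0.00147). LHCB4.3 was lower in homozygous CesA6 plants too, at 321 and 357 against 497 and 475 in heterozygous CesA6 plants, but did not pass there. PSB27, an assembly factor of photosystem II, was higher in homozygous CesA6 plants, at 3219 ± 19.4 against 2250.1 ± 123 in heterozygous CesA6 plants (SD, n = 2 each). That was a change of 0.52 ± 0.16 (adjusted p = 0.0476), a call lost in 9 of 16 alternatives. In the CesA4 line PSB27 had 3314, 3342 and 3304 in homozygous plants, against 2302, 2887 and 3405 in heterozygous plants. These overlapped, and PSB27 did not pass there. Of 18 probe sets of mitochondrially encoded genes, among which nad1 and nad5 had more than 1 each, 9 were tested and none passed. Their medians, taken over probe sets, were 0.29 in the CesA4 line and -0.22 in the CesA6 line.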
